A study of Homo sapiens with 8 samples.

Results

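The subunits of the oxidative phosphorylation machinery were examined in HepG2 cells, an established human liver cancer line, exposed for 4 days to inhibitors of EZH1 and EZH2. The EZHi group received UNC1999 and valemetostat tosylate together, each at 1 µM, and the vehicle group received DMSO, at 0.2% per the labels. Each group held 4 libraries of mRNA from this single line, so the results cover 1 cell line and the joint action of both compounds. Members were chosen by gene symbol alone, as the NDUF, SDH, UQCR, COX and ATP5 subunit families and the protein-coding genes of mitochondrial DNA. The symbols matched 97 of the 25603 genes in the table. After 14 pseudogenes were left out, 83 remained, of which 80 were protein-coding single genes, 2 were long noncoding RNAs (UQCRB-AS1 and UQCRFS1-DT) and 1 was a read-through gene (ATP5MF-PTCD1). Of the 80, 79 passed the filter on low values and were tested. ATP5MGL and the 3 other transcripts did not pass it. The 13 protein-coding genes of mitochondrial DNA are not analysed here, so the values below are those of the nuclear genes. NDUFA6, COX6A2, COX8C and COX7B2 are not analysed here either.

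Oxidative phosphorylation takes place at the inner mitochondrial membrane. Complexes I and II pass electrons from NADH and succinate to ubiquinone, complex III passes them on to cytochrome c, and complex IV reduces oxygen. Complexes I, III and IV pump protons, and complex V, the ATP synthase, uses the gradient to make ATP. Apart from complex II, each complex joins subunits encoded by nuclear genes with a few encoded by mitochondrial DNA, and hepatocytes, which carry out much of the metabolism of the body, are rich in mitochondria. Within polycomb repressive complex 2, EZH1 or EZH2 methylates histone H3 at lysine 27, a mark of silent genes.

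Nearly every nuclear subunit differed by little between EZHi and vehicle. COX6B2, a tissue-restricted form of a complex IV subunit, rose, and the complex I subunits NDUFC1 and NDUFS1 fell. No other member passed an adjusted p of 0.05 in limma with group as the only factor. This made 1 of 79 called higher, against 8.85% of all 20153 genes tested, and 2 of 79 called lower (2.53%), against 4.27%. A fit that paired the libraries by replicate number, given below, called 18 members lower (22.8%), against 15.1% of all tested genes. Without that pairing, 2 members were higher and 16 lower at an unadjusted p under 0.05, against 2953 and 2414 of the 20153 genes. Levels are given on the deposited log2 scale, corrected for transcript length, and as estimated FPKM (fragments per kilobase of transcript, scaled to the library). Changes are log2 fold changes of EZHi over vehicle. The scale comes from a regularized log, which shrinks differences of genes with few reads, so changes of low genes are understated.

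**Figure D1:**
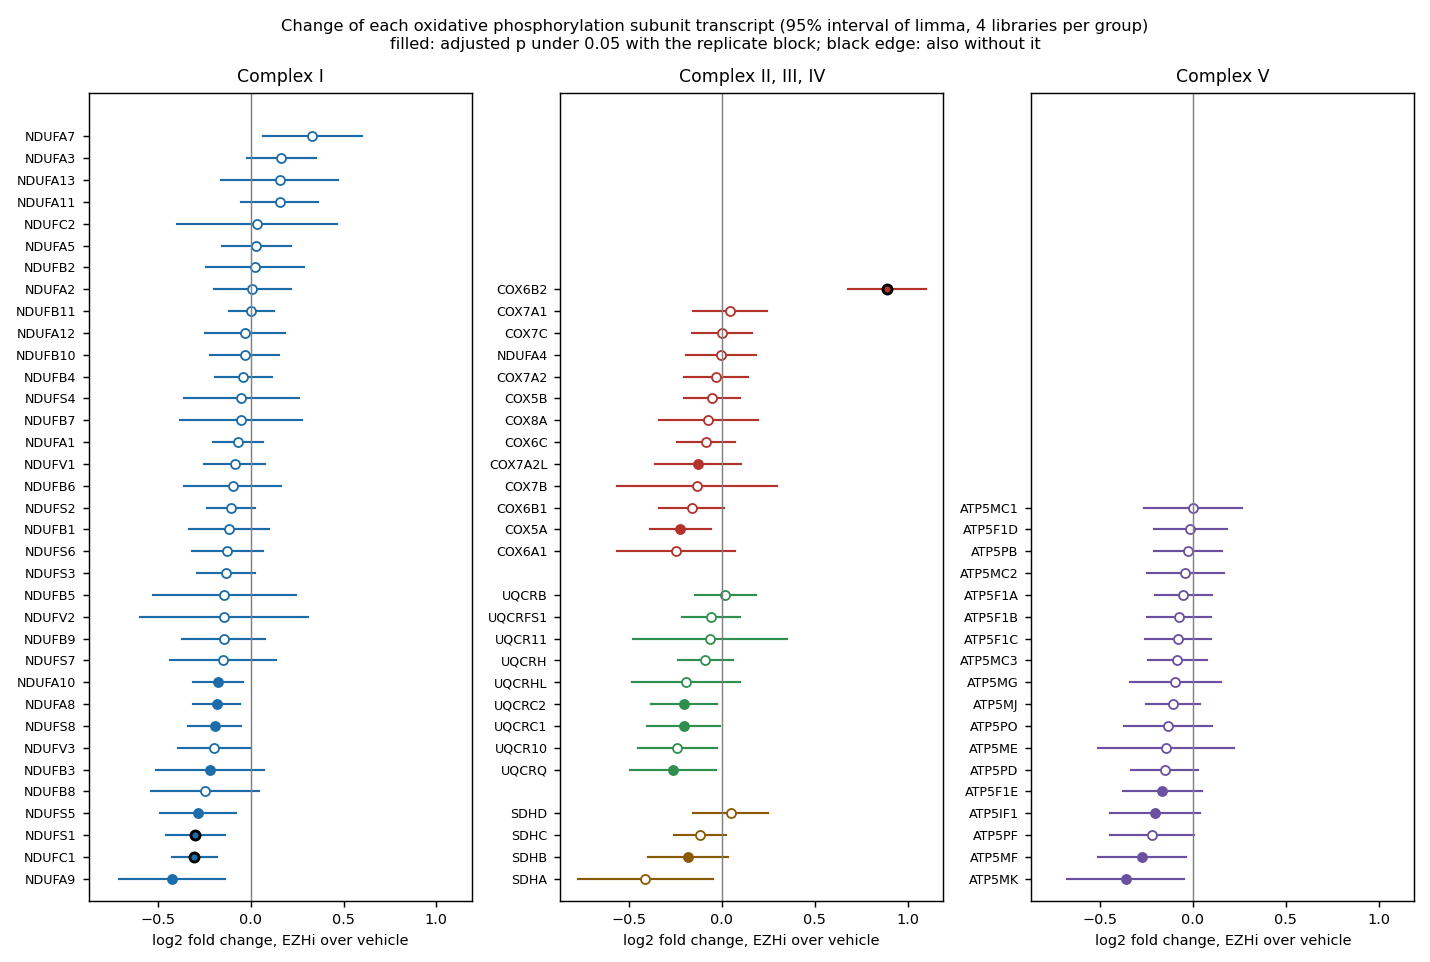
Log2 fold change of EZHi over vehicle (x axis) for each of the 79 tested subunit genes, grouped by complex, with points for the estimate and bars for its 95% interval from limma with 4 libraries per group. COX6B2 at 0.89 stands apart, while the other 78 genes lie between -0.43 and 0.33, most of them below 0.

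The median log2 fold change of the 79 members was -0.10, with an interquartile range from -0.19 to -0.03, and 64 of the 79 values (81.0%) were below 0. Over all tested genes the median was -0.0077 and 52.0% were below 0. Most members were abundant, however, and the 7809 genes of at least 10 FPKM had a median of -0.09, with 72.9% below 0. The 64 members at that level had a median of -0.10, with 56 (87.5%) below 0. Of these 64, 0 were called higher and 2 lower, against 2.73% and 9.16% of all genes at that level. At an unadjusted p under 0.05 in limma, 0 of the 64 were higher and 13 lower, against 453 and 1880 of the 7809 genes. The SD of the log2 fold changes was 0.095 over the 64 members and 0.25 over the 7809 genes. The interquartile ranges differed less, at -0.18 to -0.05 and -0.20 to 0.01. At all levels tested, the SD was 0.17 over the 79 members and 0.38 over all tested genes. Related gene sets at all levels had smaller SDs than the 79 members. These were 0.12 for assembly factors and mitochondrial ribosomal proteins and 0.10 for genes that express mitochondrial DNA.

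Averaged over the 79 members, the log2 level in vehicle libraries 1 to 4 was 9.92, 9.84, 9.83 and 9.72. In EZHi libraries 1 to 4 it was 9.75, 9.80, 9.67 and 9.72. The groups overlapped, and the differences within pairs of equal replicate number ran from -0.17 to -0.0089. Member by member, 24 of 79 (30.4%) were lower in all 4 pairs, against 24.2% of all tested genes and 44.6% of genes of at least 10 FPKM, and 3 were higher in all 4, against 20.6% and 11.6%. When libraries were centred on the genes of at least 10 FPKM, which moved every log2 fold change by 0.095, the members' median was -0.0084 and 42 of 79 were below 0. With quantile normalization the median was -0.016 and 45 of 79 were below 0. The small decrease thus depended on the scaling of the libraries, as the cumulative curves under each scaling show. In bulk RNA, a change in the number of cells of a type and a change in RNA per cell cannot be told apart.

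**Figure D2:**
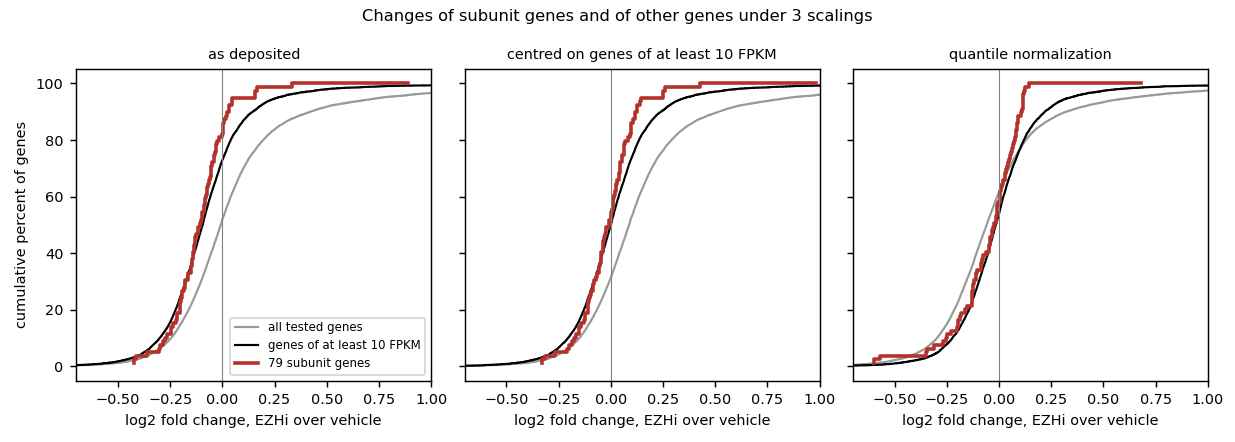
Cumulative percent of genes (y axis) against the log2 fold change of EZHi over vehicle (x axis), for the 79 subunit genes, the genes of at least 10 FPKM and all tested genes, under the deposited scaling, centring on genes of at least 10 FPKM and quantile normalization. The subunit curve crosses 50% at -0.10, -0.0084 and -0.016 in that order and runs close to that of genes of at least 10 FPKM over its lower part.

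The intervals limit how large an overlooked change on the deposited scale could be. They do not cover the shrinkage of low genes or the choice of scaling. The 95% interval lay within 0.5 log2 units of 0, a 1.41-fold change, for 66 of the 79 members, and within 1 log2 unit for 78, COX6B2 being the exception. Replicate numbers paired the libraries, and a fit with the replicate number as a block gave narrower intervals, with 72 members within 0.5 and 35 within 0.25. That fit called 1 member higher and 18 lower (22.8%), among them the 3 called without the block. Of all tested genes it called 14.9% higher and 15.1% lower. Of genes of at least 10 FPKM it called 32.5% lower, against 17 of the 64 members at that level (26.6%), and 8.2% higher, against 0 of the 64. The 18 members had log2 fold changes from -0.43 to -0.13 and 17 of them were lower in all 4 pairs, ATP5MF in 3. Centring alone gave 2 members called higher and 1 lower, against 12.7% and 1.58% of all tested genes. With the block and centring 3 were called higher and 5 lower (22.6% and 6.79% of all), and with the block and quantile normalization 8 lower (14% of all). In both of these fits 4 of the 64 members of at least 10 FPKM were called lower, against 14.6% and 16.5% of all genes at that level. In the blocked fit without both libraries of 1 replicate number, 5, 16, 4 and 16 members were called lower on leaving out numbers 1 to 4, against 11%, 12.4%, 9.4% and 8.87% of all tested genes.

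Levels spanned from 0.213 to 999 FPKM, with a median of 46.0 FPKM in vehicle. ATP5F1B, the catalytic beta subunit of the ATP synthase, was the most abundant in vehicle, followed by the complex III core protein UQCRC2 at 500 FPKM and the ATP synthase alpha subunit ATP5F1A at 470 FPKM. The 3 members under 1 FPKM in the mean over all libraries were COX6B2, COX7A1 and NDUFA3. The median mean transcript length was 781 bases over the members and 1418 over all tested genes. The 80 genes lay on 22 chromosomes, with 12 on chromosome 19.

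**Figure D3:**
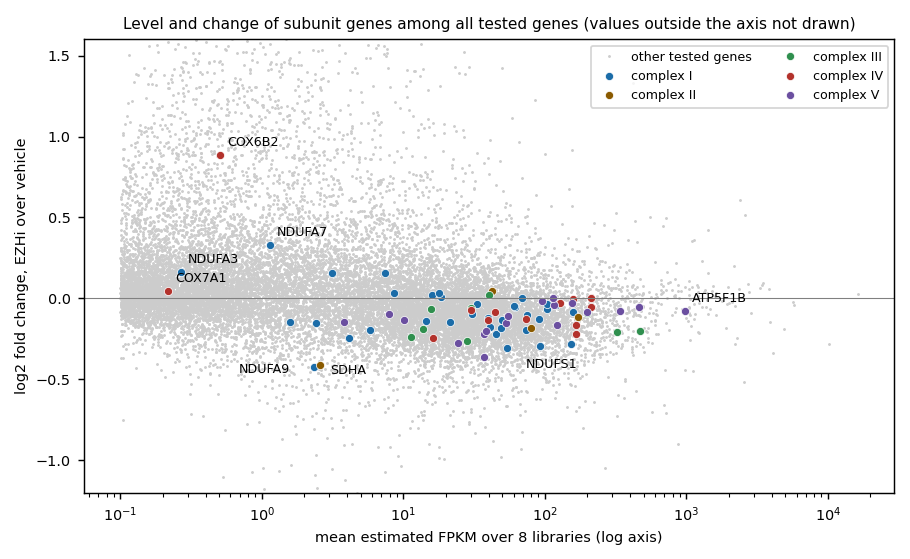
Log2 fold change of EZHi over vehicle (y axis) against the mean estimated FPKM over 8 libraries (log x axis) for subunit genes, coloured by complex, and for other tested genes in grey. The 64 members of at least 10 FPKM lie between -0.36 and 0.05, and COX6B2, at 0.89, is the only member above 0.5.

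Complex I, the NADH dehydrogenase, had 35 tested members with a median of -0.10 and 26 below 0. None was called higher, against 8.85% of all tested genes. Called lower were 2 (5.71%), against 4.27% of all tested genes and 9.16% of genes of at least 10 FPKM. With the block 8 (22.9%) were called lower, against 15.1% and 32.5%. NDUFC1, an accessory subunit (chr4:139266880-139302551, minus strand, hg38), stood at 10.61, 10.58, 10.58 and 10.51 in vehicle and 10.27, 10.30, 10.23 and 10.26 in EZHi. The groups did not overlap, and the values lay close together within each. It fell by 0.30 (SE 0.054, limma adjusted p = 0.0047, 4 of 4 pairs lower), and kept the call in each fit without 1 library. Of its exon bases 31.5% are also annotated to other genes, and reads were counted without strand.

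NDUFS1 (chr2:206114817-206159509, minus strand), the largest core subunit, which carries iron-sulfur clusters, read 11.39, 11.26, 11.45 and 11.27 in vehicle and 11.17, 11.02, 11.04 and 10.96 in EZHi. All 4 EZHi values lay below all vehicle values. It fell by 0.30 (SE 0.070, limma adjusted p = 0.0206). The call was lost without vehicle library 1 (adjusted p = 0.0612), EZHi library 2 (0.0518) or EZHi library 4 (0.0674), and with centring (log2 fold change -0.20, adjusted p = 0.0967) or quantile normalization (-0.19, adjusted p = 0.0958).

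NDUFA9, an accessory subunit at the ubiquinone-binding region, had the lowest log2 fold change of all members. Its values were 6.06, 6.21, 6.32 and 5.79 in vehicle and 5.52, 5.74, 5.72 and 5.69 in EZHi. The groups did not overlap, although vehicle library 4 lay only just above the EZHi range. The difference was -0.43 (SE 0.127), which missed the threshold (limma adjusted p = 0.0565) and passed it with the block (adjusted p = 0.0163). It was also called without the block under quantile normalization (-0.60, adjusted p = 0.0146) and without vehicle library 4 (-0.53, adjusted p = 0.0227). NDUFA7 had the highest log2 fold change of complex I at 0.33 (adjusted p = 0.102), with 4.71, 4.87, 4.48 and 4.66 in vehicle and 4.83, 5.04, 5.02 and 5.15 in EZHi. It was higher in all 4 pairs but the groups overlapped, and 32.5% of its exon bases are shared with other genes. With centring it was called (0.43, adjusted p = 0.0386), but with quantile normalization the log2 fold change was 0.12 and it was not called. NDUFA3, at 0.253 FPKM in vehicle, followed with 0.17 (adjusted p = 0.245).

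By role, all 7 core subunits of complex I were below 0, with a median of -0.14. With centring this became -0.047 with 6 below 0, and with quantile normalization -0.075 with 5 below 0. The 28 supernumerary subunits had a median of -0.06 and 19 below 0, which became 0.035 and 13 with centring and -0.0031 and 14 with quantile normalization. With the block, the further members called lower were NDUFS5, NDUFB3, NDUFS8, NDUFA8 and NDUFA10, from -0.28 in NDUFS5 (adjusted p = 0.0055) to -0.18 in NDUFA10 (adjusted p = 0.0281). Over all complexes, 7 members had EZHi values wholly below vehicle values (8.86%; 7.93% of all tested genes and 16.1% of genes of at least 10 FPKM). Of these, 6 belonged to complex I, which is 17.1% of its 35 tested members, and the other was COX5A. COX6B2 was the 1 member wholly above, against 10.7% of all tested genes and 3.78% of genes of at least 10 FPKM.

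Complex II, the succinate dehydrogenase, is encoded by nuclear genes alone. No member was called in limma without the block, and 1, SDHA, had an unadjusted p under 0.05. SDHA, the flavoprotein, had vehicle values of 6.28, 6.17, 6.53 and 5.85 and EZHi values of 5.92, 5.53, 5.71 and 6.02. The groups overlapped, and pair 4 went the other way from the rest. Its difference was -0.41 (SE 0.162, limma adjusted p = 0.135; 0.0731 with the block). It was called with the block and quantile normalization (-0.57, adjusted p = 0.0184) and with the block without replicate 4 (-0.61, adjusted p = 0.0119). SDHA shares 21.7% of its exon bases with 1 other annotated gene and has near-identical pseudogenes, so its reads could have been split. SDHB, the iron-sulfur subunit, differed by -0.18 (adjusted p = 0.267; 0.025 with the block). The membrane anchors SDHC and SDHD differed by -0.12 (adjusted p = 0.268) and 0.05 (adjusted p = 0.800).

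Complex III, the cytochrome bc1 complex, had a median of -0.19 over 9 members, 8 of them below 0, and without vehicle library 1 it was -0.09. With centring the median was -0.096. None was called in limma without the block, and an unadjusted p under 0.05 was reached by 4, each lower. Of the 7809 genes of at least 10 FPKM, 1880 were lower at that threshold. UQCRC2, a core protein, read 13.70, 13.69, 13.68 and 13.49 in vehicle and 13.52, 13.50, 13.45 and 13.28 in EZHi. The groups overlapped because replicate 4 was lowest in both, yet every pair differed by -0.23 to -0.18, and it was called with the block (adjusted p = 0.134 without it, 0.0071 with it). UQCRC1, the other core protein, differed by -0.21 and the small subunit UQCRQ by -0.26, and both were called with the block (adjusted p = 0.0372 and 0.0375). Without the block, UQCRQ was called on leaving out EZHi library 2 (-0.35, adjusted p = 0.0434). UQCR10 differed by -0.24 (adjusted p = 0.140), the Rieske protein UQCRFS1 by -0.06 (adjusted p = 0.674) and UQCRB by 0.02 (adjusted p = 0.909). UQCRH and UQCRHL are near-identical copies, so their separate levels are uncertain.

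**Figure D4:**
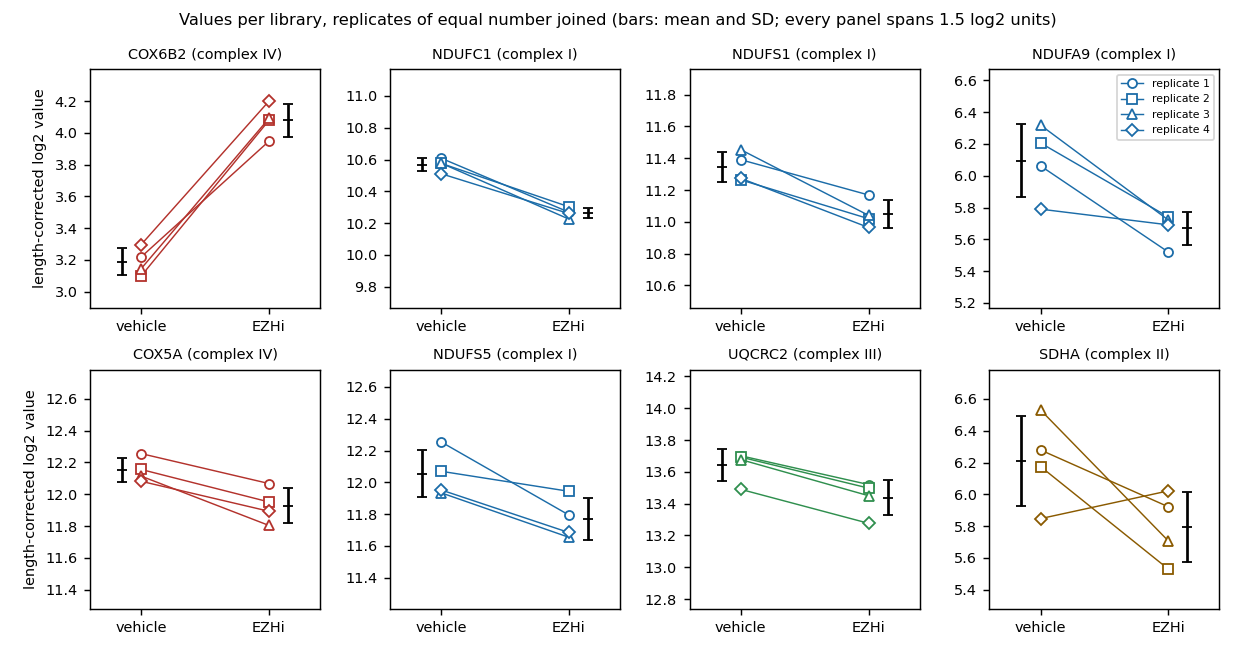
Length-corrected log2 value (y axis) of 8 subunit genes in each vehicle and EZHi library, with replicates of equal number joined and bars for the mean and SD. COX6B2 rises in all 4 pairs, UQCRC2 shows nearly parallel lines with differences of -0.23 to -0.18, and SDHA has 1 pair that goes the other way.

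Complex IV, cytochrome c oxidase, had 13 tested members with a median of -0.07, which was 0.02 with centring. COX6B2 (chr19:55349306-55354719, minus strand), the form of subunit VIb known from testis, read 3.22, 3.10, 3.15 and 3.30 in vehicle and 3.95, 4.08, 4.09 and 4.20 in EZHi. Every EZHi value lay above every vehicle value by a gap wider than the spread of either group. The rise was 0.89 (SE 0.094, 95% interval 0.68 to 1.10, limma adjusted p = 0.000218), from 0.357 to 0.661 FPKM. It held in every fit without 1 library, between 0.85 and 0.93, and was 0.68 with quantile normalization. With 0.5 FPKM added before the logarithm it was 0.44, and a filter of 1 FPKM removed the gene. COX6B2 shares 29.1% of its exon bases with 1 other annotated gene.

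The ubiquitous partner, COX6B1, was not called. It stood at 12.25, 12.09, 12.20 and 12.02 in vehicle and 11.99, 12.11, 11.83 and 11.98 in EZHi, a difference of -0.16 (adjusted p = 0.227). COX6B2 amounted to 0.203% of the COX6B1 level in vehicle and 0.421% in EZHi, with ranges over libraries of 0.188% to 0.237% and 0.379% to 0.468%. COX7A1, the heart and muscle form of subunit VIIa, was at 0.213 FPKM in vehicle and differed by 0.05 (adjusted p = 0.803), or 0.166% and 0.177% of COX7A2. COX4I2, a form of subunit IV outside the member rule that is associated with lung and low oxygen, was 4.38, 4.08, 4.87 and 4.52 in vehicle and 4.91, 4.49, 5.62 and 5.14 in EZHi. It was higher in all 4 pairs with overlapping groups (0.58, adjusted p = 0.163; 0.0035 with the block), while COX4I1 differed by -0.13 (adjusted p = 0.207).

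Among the other complex IV members, COX5A read 12.26, 12.16, 12.11 and 12.08 in vehicle and 12.07, 11.95, 11.80 and 11.89 in EZHi. The groups did not overlap, and the difference of -0.22 was called with the block (adjusted p = 0.0762 without it, 0.0048 with it). COX7A2L, which takes part in joining complexes into supercomplexes, differed by -0.13 (adjusted p = 0.482; 0.0498 with the block). COX6A1 differed by -0.25 (adjusted p = 0.315), and COX7A2, COX8A and NDUFA4 by -0.03, -0.07 and -0.0031, all of which were above 0 with centring.

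The 250 bases before the annotated start of COX6B2, COX6B1 and NDUFA9 are shown to compare the member that rose with its ubiquitous partner and with the member of lowest change. They come from RefSeq (GRCh38.p14), at chr19:55354720-55354969 (minus strand), chr19:35648073-35648322 (plus strand) and chr12:4648864-4649113 (plus strand). Capitals mark matches to the NRF1 motif (GCGCA, any base, then GCGC) or to CCGGAAG, letters bound by ETS factors such as GABP, on either strand. Both factors are known to act at respiratory genes.
COX6B2: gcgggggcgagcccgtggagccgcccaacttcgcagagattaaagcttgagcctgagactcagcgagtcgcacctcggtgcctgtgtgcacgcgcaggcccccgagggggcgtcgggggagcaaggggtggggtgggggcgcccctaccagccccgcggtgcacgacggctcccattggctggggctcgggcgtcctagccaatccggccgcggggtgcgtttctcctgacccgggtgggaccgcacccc
COX6B1: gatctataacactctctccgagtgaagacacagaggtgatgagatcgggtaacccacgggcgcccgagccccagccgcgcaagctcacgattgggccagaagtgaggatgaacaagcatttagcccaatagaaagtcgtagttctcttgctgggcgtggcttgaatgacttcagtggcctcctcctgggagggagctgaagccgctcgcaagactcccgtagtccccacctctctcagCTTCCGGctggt
NDUFA9: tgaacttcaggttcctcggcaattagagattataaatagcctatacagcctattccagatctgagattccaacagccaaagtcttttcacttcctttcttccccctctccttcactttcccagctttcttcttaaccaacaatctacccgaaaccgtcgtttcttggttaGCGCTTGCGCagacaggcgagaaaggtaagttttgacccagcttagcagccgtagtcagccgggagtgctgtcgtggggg

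The COX6B2 window held 26 CpG dinucleotides and 72.8% G and C, and neither set of letters. The COX6B1 window held 14 CpG and 1 ETS match, and the NDUFA9 window 10 CpG and 1 NRF1 match. The median was 18 CpG over the member windows and 11 over all windows. Some members that were lower with the block also had CpG-rich windows or lacked both sets of letters, but NDUFA9, lower as well, did not. COX5A had 31 CpG, 70.8% G and C and neither set, and UQCRC2 11 CpG and neither set. The NDUFS1 windows had 24 and 20 CpG, with 1 ETS match in the window of 24. Windows were found for 64 of the 80 members, 77 windows in all because some genes have several starts. NRF1 letters stood in 14 of the 77 (18.2%), against 5.07% of all 35116 windows, and ETS letters in 19 (24.7%), against 8.52%. The median log2 fold change was -0.07 for the 14 members with NRF1 letters and -0.13 for the 50 without, and -0.11 for members with and without ETS letters. A match describes letters only and is no evidence of binding.

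Complex V had 18 tested members with a median of -0.10 and 17 below 0, and none was called in limma without the block, with 2 lower at an unadjusted p under 0.05. ATP5MK, a small membrane subunit, had the lowest value at -0.36 (SE 0.141). It stood at 10.45, 10.05, 9.88 and 9.77 in vehicle and 9.62, 9.87, 9.52 and 9.70 in EZHi. The groups overlapped at their edges, and the pair differences ran from -0.83 to -0.07 (adjusted p = 0.132; 0.0332 with the block). ATP5MF, also of the membrane part, differed by -0.27 (adjusted p = 0.131; 0.0447 with the block), and the F1 subunit ATP5F1E by -0.16 (adjusted p = 0.313; 0.0240 with the block). ATP5IF1, which inhibits the enzyme when it would hydrolyse ATP, differed by -0.20 (adjusted p = 0.275; 0.0400 with the block).

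The catalytic ATP5F1B read 14.75, 14.49, 14.69 and 14.62 in vehicle and 14.63, 14.54, 14.58 and 14.51 in EZHi, with overlapping groups and a difference of -0.08 (95% interval -0.25 to 0.09). The 3 genes for the c ring, ATP5MC1, ATP5MC2 and ATP5MC3, encode the same mature protein and differed by 0.0010, -0.04 and -0.08. By part, the medians were -0.08 over 5 F1 subunits, -0.14 over 4 of the peripheral stalk and -0.14 over 5 of the membrane part. With centring the F1 median turned to 0.019, with 1 of 5 below 0, and ATP5F1B, the middle gene of that part, turned with it.

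Genes that build or run the same machinery were taken from the same fits, in which 8.85% of all tested genes were called higher and 4.27% lower, and 14.9% and 15.1% with the block. Of genes of at least 10 FPKM, 9.16% were called lower, and 32.5% with the block. Of 49 assembly factors, 0 were called higher (0 at an unadjusted p under 0.05) and 2 were called lower in limma, the complex I factors NDUFAF3 (-0.30, adjusted p = 0.0067) and NDUFAF5 (-0.37, adjusted p = 0.0432). With the block 8 (16.3%) were lower and 1, the complex III factor LYRM7, higher. Of 75 mitochondrial ribosomal proteins tested, 4 fell (MRPL28, MRPL19, MRPL55 and MRPL22, each by 0.28 to 0.29), the median was -0.14, and 30 (40%) were lower with the block. Of 23 genes for the expression of mitochondrial DNA, 1 fell, POLRMT, the mitochondrial RNA polymerase (-0.24, adjusted p = 0.0447), and 7 (30.4%) were lower with the block.

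Of 8 nuclear regulators tested, none was called in limma without the block, and an unadjusted p under 0.05 was reached by 1, NRF1. NRF1 was lower in all 4 pairs (-0.19, limma adjusted p = 0.128, or 0.0611 with the block). PPARGC1A, a coactivator of respiratory genes, was 8.68, 8.60, 9.28 and 9.13 in vehicle and 9.12, 9.07, 9.65 and 9.45 in EZHi. It was higher in all 4 pairs by 0.32 to 0.47, although the groups overlapped (0.40, adjusted p = 0.189; 0.00047 with the block). PPRC1, a related coactivator, was lower in all 4 pairs (-0.14, adjusted p = 0.364; 0.0399 with the block). Among 6 subunits and electron carriers outside the rule, NDUFAB1 (-0.28), CYC1 (-0.34) and NDUFA4L2 (-0.23) were lower with the block, and CYCS differed by -0.07. Of 14 nuclear copies of mitochondrial genes tested, none was called in either limma fit, and 0 had an unadjusted p under 0.05 without the block. The most abundant, MTATP6P1, was at 641 FPKM in vehicle and differed by -0.10 (adjusted p = 0.707). Reads of mitochondrial transcripts could map to such copies.

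EZH1 and EZH2 transcripts differed by -0.07 and -0.06 and were not called, and the compounds act on the proteins. Read depth is unknown because the values are normalized. All 9 hepatocyte markers had values, with summed levels of 27875 to 51821 FPKM in vehicle and 30111 to 46216 FPKM in EZHi, and 1 of them, FGB, rose (0.92, adjusted p = 0.0017). Of 3 endothelial markers VWF (1.45) and CDH5 (2.28) rose and PECAM1 differed by 0.04, with sums of 2.26 to 2.72 FPKM in vehicle and 3.42 to 7.21 FPKM in EZHi. The leukocyte marker CD3E was near 0 and LYZ at 1471 FPKM in vehicle was not called, and 1 fibroblast marker had values, summing to at most 4.28 FPKM. The part of the endothelial markers in the subunit values was not tested.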

How the data were processed

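Gene expression was measured by RNA-seq in HepG2 cells, with 4 vehicle and 4 EZHi libraries grouped by sample titles. The authors mapped paired 150 bp reads to hg38 (HISAT2 2.2.1), counted them over exons without strand (HTSeq 0.9.1), removed genes with very few reads, and deposited values on a log2 scale, the regularized log of DESeq2 (1.40.2) corrected for mean transcript length; versions follow the submitters' processing notes. The table is named as FPKM. Here, estimated FPKM was 2 to the power of the value, divided by the mean sum of normalized reads (25.6 M, libraries 24.4 to 27.3 M). Read depth is unknown.

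The 20153 genes with a mean of at least 0.1 FPKM were tested with limma 3.58.1 (R 4.3.3; eBayes with trend, group only, two-sided, Benjamini-Hochberg over all tested genes), and genes with an adjusted p under 0.05 were called. Coordinates and gene types came from GENCODE release 44. The fit was tested on simulated data in which 200 of 20153 genes changed. It called 0 of the 200 at a log2 change of 0.25, 75 at 0.5 and 183 at 1, so small changes are mostly missed. Python 3.11.15 with pandas 2.3.3, numpy 2.4.6 and matplotlib 3.10.9 was used. Replicate numbers come from the titles; deviations from group means correlated between equal numbers at 0.310, 0.558, 0.634 and 0.216, and 8 of 8 libraries correlated best with their own number, so they were taken as pairs. That libraries are separate cultures rests on the study's methods.

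The members and gene lists were chosen with earlier results of these data known, so lists have no test. Named members were those called, SDHA to SDHD, the 2 highest and 2 lowest of each other complex, genes with tissue or gene copies, ATP5IF1 and COX7A2L; others were named after their values were seen. Alternatives were the block, centring, quantile and median of ratios scaling, other filters, a pseudocount of 0.5 FPKM and leaving out libraries.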

Additional observations from a re-analysis of the deposited data

Results flagged for a closer look

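The mean log2 level of the 4 complex II genes in EZHi replicate 1 was 9.83, while the other 3 EZHi libraries lay between 9.66 and 9.68. Its gap to the nearest library was 0.878 of the group's range, more than Dixon's 95% critical value. Of 68 groups of 4 libraries examined, this was 1, and about 3.4 would be expected by chance, since such a gap appears in about 1 in 20 groups.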

How the results depend on the processing

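With the replicate block, members called lower numbered 18 and the call of COX6B2, NDUFC1 and NDUFS1 held; among members it changed no call other than those given with it in the report. Centring on genes of at least 10 FPKM gave 2 called higher and 1 lower, and with the block 3 and 5. Block and quantile normalization gave 8 lower. A filter of 1 FPKM gave 0 higher in limma (6% of the genes then tested), because COX6B2 was not tested; 1 of 76 members was higher at an unadjusted p under 0.05. Alternatives chosen after seeing the data left out both libraries of 1 replicate number, with the block, and gave 5, 16, 4 and 16 lower without replicates 1 to 4. Leaving out 1 library gave 1 to 4 lower (1.93% to 4.27% of all tested genes; 1 without vehicle library 1 or EZHi library 4, 4 without EZHi library 2), 1 to 1 higher, and a median of -0.13 to -0.07. The median was -0.016 with quantile normalization and -0.0084 with centring, the same with the block. Over all 79 members, 22 turned from below to above 0 with centring and 21 with quantile normalization, under which 2 turned the other way. Among the complex medians and the members named by rule, directions turned, with and without the block, under quantile normalization for the complex IV median (0.0052), NDUFA3 (-0.013), UQCRFS1 (0.032), COX7A1 (-0.12), ATP5F1D (0.10), COX7A2 (0.088), COX8A (0.0087), ATP5MC2 (0.079) and ATP5MC3 (0.028). Under centring they turned for the complex IV median (0.024), UQCRFS1 (0.038), ATP5F1D (0.081), COX7A2 (0.066), COX8A (0.024), ATP5MC2 (0.055) and ATP5MC3 (0.012). Median of ratios scaling turned ATP5MC1 (-0.0022). Leaving out 1 library turned ATP5F1D (-0.081 to 0.030), ATP5MC1 (-0.080 to 0.082), ATP5MC2 (-0.10 to 0.015), SDHD (-0.022 to 0.096), UQCRB (-0.038 to 0.051), COX7A1 (-0.0053 to 0.089), COX7A2 (-0.074 to 0.013) and COX8A (-0.13 to 0.016). Centring moves every value of a library alike by construction; other causes were not tested. The planned medians of mitochondrial members, and their difference from nuclear ones, were not run, because those genes are not analysed here.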
